A study of Mus musculus with 12 samples.

Results

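The TGF-β, activin and BMP receptors are 10 genes of the 18193 measured in peritoneal macrophages (PMs), adherent cells washed from the peritoneal cavity of C57BL/6 mice. They were chosen by name, as receptors and co-receptors of the TGF-β family, and all of them were measured, by 28 probe sets in all. The type II receptors were *Tgfbr2*, *Acvr2a* and *Bmpr2*, the type I receptors *Tgfbr1*, *Acvr1b*, *Acvr1*, *Acvrl1* and *Bmpr1a*, and the co-receptors *Tgfbr3* and *Eng*. For each gene the probe set of highest mean on the 12 arrays was taken, and the remaining ones are described separately.

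RNA was read on Affymetrix mouse arrays in 6 groups of 2 arrays. PMs were given lipofectamine, a lipid transfection reagent, either alone, with a scramble oligonucleotide as the control, or with antagomir-21, an antisense oligonucleotide against miR-21. Each transfection was combined with exosomes of sensory neurons that overexpressed miR-21 (miR-21 exosomes) or with those carrying a GFP reporter (GFP exosomes), so that neuronal exosomes were common to all groups and no group was left without them. The lipofectamine groups are named in the labels alone and were read as cells given the reagent without oligonucleotide. The comparisons asked whether receptor transcripts differed when macrophage miR-21 was targeted by antagomir-21 or when neurons supplied it. Values are log2 signals, on which a difference of 1 is a doubling. Nothing in the labels ties an array to a separate animal or culture, although the methods speak of biological replicates, and the number of arrays limits the precision.

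Ligands of this family are dimers that bring type II and type I receptors together at the cell surface. The type II receptor, a constitutively active kinase, phosphorylates the type I receptor, which in turn phosphorylates Smad proteins that enter the nucleus and regulate transcription. TGF-βR2 with TGF-βR1 carries TGF-β signals, which restrain inflammatory responses of macrophages, whereas activin and BMP receptors share several of the remaining chains. The miRNA that the oligonucleotide and the exosomes were meant to change was mmu-miR-21a-5p, of the gene Mir21a, whose mature sequence in the RefSeq table lies on the minus strand of GRCm38.p6 at chr11:86584120-86584141. It is shown with its seed, bases 2 to 8, in capitals, because antagomir-21 is directed against it and the seed is the part by which a miRNA pairs with its targets.
mmu-miR-21a-5p: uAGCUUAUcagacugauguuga
These arrays do not read the mature miRNA, so its level in the PMs is not known from them. The paper reports only a partial reduction of miR-21 by antagomir-21 in PMs.

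Arrays of a group were not more alike than arrays of different groups. Over the 9096 genes with a mean at or above the median, the 6 pairs of arrays from the same group had a mean Pearson r across genes of 0.633 (range 0.482 to 0.874), against 0.657 (range 0.419 to 0.899) for the 60 pairs from different groups. For 2 of the 12 arrays the most similar array was the other one of its group. The SD of all log2 signals of an array ran from 2.04 to 2.48. Of 10 macrophage markers, 7 were among the 1820 genes of strongest mean signal and 0 below the median, and their mean was 11.08 to 12.52 on the 12 arrays. The 9 endothelial markers averaged 6.22 to 8.38, with 8 of them below the median gene. Of 12 mesothelial and fibroblast markers, 7 were below the median, and they averaged 6.92 to 7.74 on arrays with GFP exosomes and 6.92 to 8.78 on those with miR-21 exosomes. Of 4 B cell markers 1, *Ms4a1* (12.41), was among those 1820 genes, and the list averaged 8.31 to 10.13. Below the median were 1 of 4 B cell, 3 of 5 mast cell, 2 of 4 T and NK cell and 7 of 8 sensory neuron markers. No marker was at 0 on any array. In bulk RNA, fewer cells of a type and less RNA per cell cannot be told apart.

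No receptor passed the adjusted test in any comparison. In limma with Benjamini-Hochberg adjustment over all genes, 0 of 18193 genes (0%) passed in any of 11 contrasts or in the test across the 6 groups, at an adjusted p under 0.05. Across the 6 groups, 0 receptors had an unadjusted p under 0.05, beside 5.96% of all genes. *Acvr1* had the lowest p of the 10 (F = 2.26, limma unadjusted p = 0.126), and *Tgfbr2* the highest (limma unadjusted p = 0.971).

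**Figure D1:**
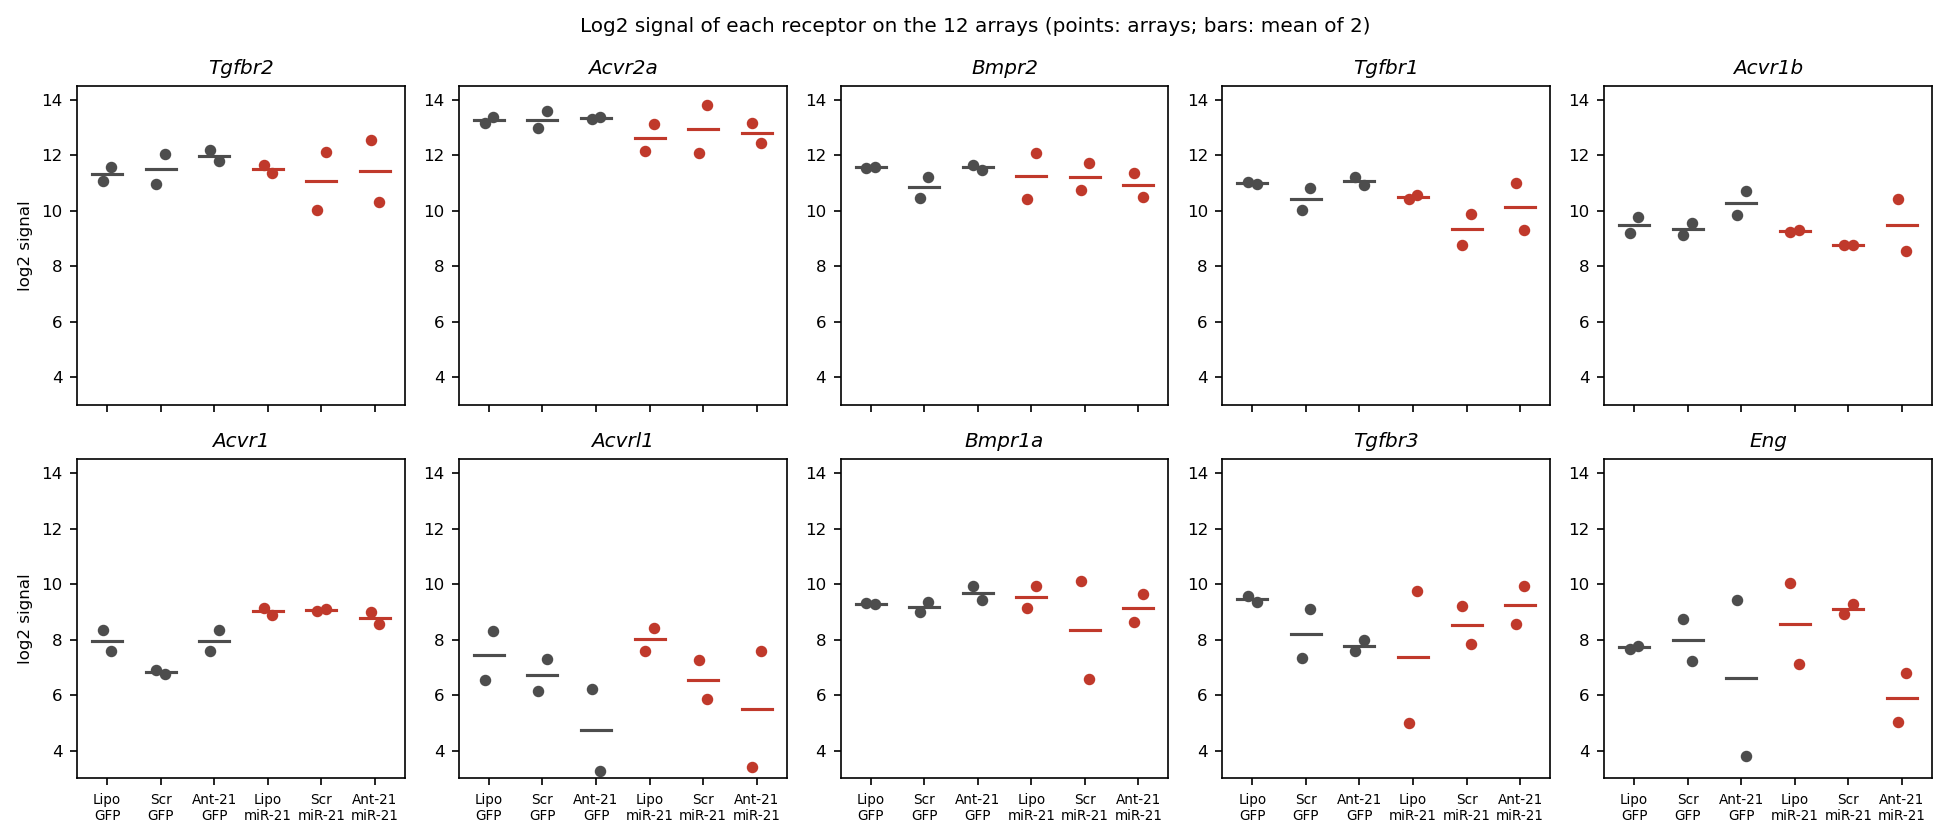
Log2 signal (y axis) of the 10 receptors in the 6 groups (x axis: lipofectamine, scramble or antagomir-21, with GFP or miR-21 exosomes), with each array as a point and the mean of the 2 arrays as a bar. The spread between the 2 arrays is wide in *Eng*, *Acvrl1* and *Tgfbr3*, and in *Acvr1* the 6 arrays with miR-21 exosomes (8.55 to 9.15) lie above the 6 with GFP exosomes (6.75 to 8.34). Heights are not comparable between panels, since each probe set has its own response.

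*Tgfbr2* encodes the type II receptor that binds TGF-β. With GFP exosomes, its log2 signal was 11.08 and 11.57 after lipofectamine, 10.99 and 12.06 after scramble, and 12.17 and 11.81 after antagomir-21. With miR-21 exosomes, it was 11.66 and 11.36 after lipofectamine, 10.04 and 12.11 after scramble, and 12.56 and 10.34 after antagomir-21. The lowest and the highest array thus both belonged to miR-21 exosomes, and the scramble and antagomir-21 arrays overlapped with either exosome. The highest group mean was that of antagomir-21 with GFP exosomes (11.99 ± 0.26, SD, n = 2) and the lowest that of scramble with miR-21 exosomes (11.07 ± 1.46, SD, n = 2), a gap of 0.92 that was smaller than its 95% half-width of 2.35. Antagomir-21 exceeded scramble by 0.47 with GFP exosomes (SE 1.06, limma unadjusted p = 0.666) and by 0.38 with miR-21 exosomes. Over both exosome kinds the difference was 0.42 (SE 0.75, 95% interval −1.24 to 2.08, limma unadjusted p = 0.584). With 1 array left out at a time it ran from −0.13 to 0.98, and it was below 0 without the first antagomir-21 array (−0.13) or the first scramble array (−0.10) with miR-21 exosomes.

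*Acvr2a* encodes an activin type II receptor, and its arrays stayed within 12.07 to 13.82. With GFP exosomes, its signal was 13.18 and 13.40 after lipofectamine, 12.98 and 13.59 after scramble, and 13.32 and 13.38 after antagomir-21. With miR-21 exosomes the pairs were wider, at 12.14 and 13.13 after lipofectamine, 12.07 and 13.82 after scramble, and 13.16 and 12.46 after antagomir-21. The difference of antagomir-21 from scramble over both exosome kinds was −0.03 and that of miR-21 from GFP exosomes −0.51, and both intervals held 0.

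*Bmpr2* encodes the type II receptor for BMPs. Its signal with GFP exosomes was 11.54 and 11.59 after lipofectamine, 10.46 and 11.23 after scramble, and 11.66 and 11.47 after antagomir-21. With miR-21 exosomes it was 10.43 and 12.08 after lipofectamine, 10.76 and 11.71 after scramble, and 11.37 and 10.51 after antagomir-21. Scramble and antagomir-21 arrays did not overlap with GFP exosomes and did with miR-21 exosomes. With 2 arrays against 2 this is common, as 35.8% of all genes did not overlap with GFP exosomes and 26.2% with miR-21 exosomes. Among the receptors there were 5 of 10 with GFP exosomes, *Bmpr2*, *Tgfbr1*, *Acvr1b*, *Acvr1* and *Bmpr1a*, and 2 of 10 with miR-21 exosomes, *Acvr1* and *Eng*. Over both kinds the difference was 0.21, and the difference between exosomes −0.18.

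*Tgfbr1* encodes the type I receptor that partners TGF-βR2. With GFP exosomes, its signal was 11.05 and 10.98 after lipofectamine, 10.02 and 10.82 after scramble, and 11.24 and 10.93 after antagomir-21. With miR-21 exosomes, it was 10.42 and 10.56 after lipofectamine, 8.78 and 9.89 after scramble, and 10.997 and 9.30 after antagomir-21. Antagomir-21 arrays lay above scramble arrays with GFP exosomes, by 0.66 on average, a separation of the kind seen in 35.8% of all genes, and overlapped them with miR-21 exosomes, where the difference was 0.81. Over both kinds it was 0.74 (SE 0.64, 95% interval −0.69 to 2.16, limma unadjusted p = 0.277), and it ran from 0.31 to 1.16 without the first or the second antagomir-21 array with miR-21 exosomes. With the mean of all probe sets it turned to −0.0425, and the difference with GFP exosomes to −0.781. The lipofectamine arrays with GFP exosomes, which received no antagomir-21, lay within the 10.93 to 11.24 of the antagomir-21 arrays. Arrays with miR-21 exosomes averaged 0.85 lower than those with GFP exosomes (−0.85, SE 0.52, limma unadjusted p = 0.136).

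*Acvr1b* encodes ALK4, the type I receptor for activins. Its 2 highest arrays were both antagomir-21, 10.71 with GFP exosomes and 10.43 with miR-21 exosomes, but the other antagomir-21 arrays were at 9.85 and 8.54, the latter the lowest of all. Scramble arrays were at 9.14 and 9.55 with GFP exosomes and at 8.78 and 8.77 with miR-21 exosomes. Lipofectamine arrays were at 9.20 and 9.77 with GFP exosomes and at 9.25 and 9.29 with miR-21 exosomes. Antagomir-21 and scramble arrays overlapped over both kinds, with a difference of 0.82 (SE 0.64, limma unadjusted p = 0.228), and the exosome kinds differed by −0.53. The antagomir-21 arrays with miR-21 exosomes moved both most, to 0.35 and −0.84 without the first and to 1.30 and −0.21 without the second, and the mean of all probe sets turned the former to −0.0395.

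*Acvr1* encodes ALK2, a type I receptor for BMPs and activins, and was the 1 receptor of the 10 whose arrays did not overlap between the exosome kinds over all transfections. With GFP exosomes, its signal was 8.33 and 7.59 after lipofectamine, 6.91 and 6.75 after scramble, and 7.58 and 8.34 after antagomir-21. With miR-21 exosomes, it was 9.15 and 8.88 after lipofectamine, 9.05 and 9.09 after scramble, and 8.98 and 8.55 after antagomir-21. All arrays with miR-21 exosomes were higher than all with GFP exosomes, and such a lack of overlap was seen in 52 of 18193 genes (0.286%). The highest mean of the mesothelial and fibroblast markers was also on arrays with miR-21 exosomes (8.78 against 7.74). So it was for endothelial (8.38 against 7.63), B cell (10.13 against 9.33) and mast cell markers (8.67 against 8.57). For macrophage, sensory neuron, and T and NK cell markers it was on arrays with GFP exosomes. All these lists overlapped between the kinds, and their part in the *Acvr1* difference was not tested. The means of *Acvr1* were 8.95 and 7.58, a difference of 1.37 (SE 0.47, 95% interval 0.33 to 2.41). It was the 1 receptor of 10 with an unadjusted p under 0.05 in this comparison (limma unadjusted p = 0.0148), beside 5.45% of all genes. After adjustment over all genes limma's adjusted p = 0.809. The unadjusted value was 0.0538 without the second lipofectamine array with GFP exosomes, 0.0509 with an intensity trend in the variance prior and 0.1125 with the mean of all probe sets. The difference was 1.06 after lipofectamine, 2.24 after scramble (SE 0.81, limma unadjusted p = 0.0197, adjusted p = 0.796) and 0.81 after antagomir-21. After scramble, *Acvr1* was again the 1 receptor with an unadjusted p under 0.05, beside 5.7% of all genes. The interaction of antagomir-21 with exosomes did not pass for any receptor (0 of 10 at an unadjusted p under 0.05, beside 5.36% of all genes). PMs given antagomir-21 and miR-21 exosomes exceeded those given scramble and GFP exosomes by 1.94 in *Acvr1* (limma unadjusted p = 0.0374), the 1 receptor below 0.05 there, beside 3.94% of all genes. That value was 0.05 or more without any of 8 arrays taken out singly, and the value after scramble was 0.0504 or 0.0646 without the first or the second scramble array with GFP exosomes.

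*Acvrl1* encodes ALK1, a type I receptor for BMPs that is abundant in endothelium. Its antagomir-21 arrays were at 6.22 and 3.26 with GFP exosomes and at 3.42 and 7.60 with miR-21 exosomes, and its lipofectamine arrays at 6.55 and 8.32, and at 7.59 and 8.44. Scramble arrays were at 6.14 and 7.31 with GFP exosomes and at 7.27 and 5.84 with miR-21 exosomes. The arrays with antagomir-21 overlapped both others. The 9 endothelial markers averaged 6.35 to 7.45 on antagomir-21 arrays, 6.22 to 7.63 on scramble arrays and 6.39 to 8.38 on lipofectamine arrays, and their part in the signals of *Acvrl1* and *Eng* was not tested. Antagomir-21 was 2.60 below lipofectamine over both exosome kinds (−2.60, SE 1.05, limma unadjusted p = 0.0327), the 1 receptor below 0.05 there, beside 4.7% of all genes, and 1.52 below scramble (−1.52, SE 1.05, limma unadjusted p = 0.180). The difference from scramble was −0.47 without the first and −2.56 without the second antagomir-21 array with miR-21 exosomes. Without single arrays the difference from lipofectamine was −3.64 to −1.55, and its unadjusted p was 0.05 or more without any of 4 arrays, which were the second lipofectamine arrays with GFP and with miR-21 exosomes, the second antagomir-21 array with GFP exosomes and the first with miR-21 exosomes.

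*Bmpr1a* encodes ALK3, a type I receptor for BMPs. Its lowest array, 6.58, was a scramble array with miR-21 exosomes, and the other array of that group was its highest, 10.10. The remaining 10 arrays lay between 8.62 and 9.94. The difference of antagomir-21 from scramble, 0.65 over both exosome kinds, was −0.23 without the lowest array, and arrays of both exosome kinds overlapped (−0.38).

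*Tgfbr3* encodes betaglycan, a co-receptor that presents TGF-β to TGF-βR2. Its lowest array, 5.001, was lipofectamine with miR-21 exosomes, and the other array of that group was at 9.77. Its lipofectamine arrays with GFP exosomes were at 9.58 and 9.35, and all scramble and antagomir-21 arrays lay between 7.33 and 9.92. Antagomir-21 differed from scramble by 0.14 and miR-21 exosomes from GFP exosomes by −0.10. Without the lowest array, the difference between exosomes after lipofectamine was 0.30, against −2.08 with it.

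*Eng* encodes endoglin, a co-receptor that is abundant in endothelium, and had the widest range of the 10, 3.80 to 10.04. Antagomir-21 arrays were at 9.45 and 3.80 with GFP exosomes and at 5.03 and 6.78 with miR-21 exosomes, whereas scramble arrays were at 8.74 and 7.23, and at 8.94 and 9.30. Lipofectamine arrays were at 7.65 and 7.78 with GFP exosomes and at 10.04 and 7.12 with miR-21 exosomes. Antagomir-21 and scramble overlapped with GFP exosomes and did not with miR-21 exosomes, where 26.2% of all genes did not overlap and the difference was −3.21 (SE 1.68, limma unadjusted p = 0.0844). With GFP exosomes it was −1.36, and between −4.19 and 1.46 without single arrays. Over both it was −2.29 (SE 1.19, limma unadjusted p = 0.0825), but −3.70 without the first and −0.88 without the second antagomir-21 array with GFP exosomes, and the other probe set of *Eng*, 1417271_a_at, differed by 0.55.

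**Figure D2:**
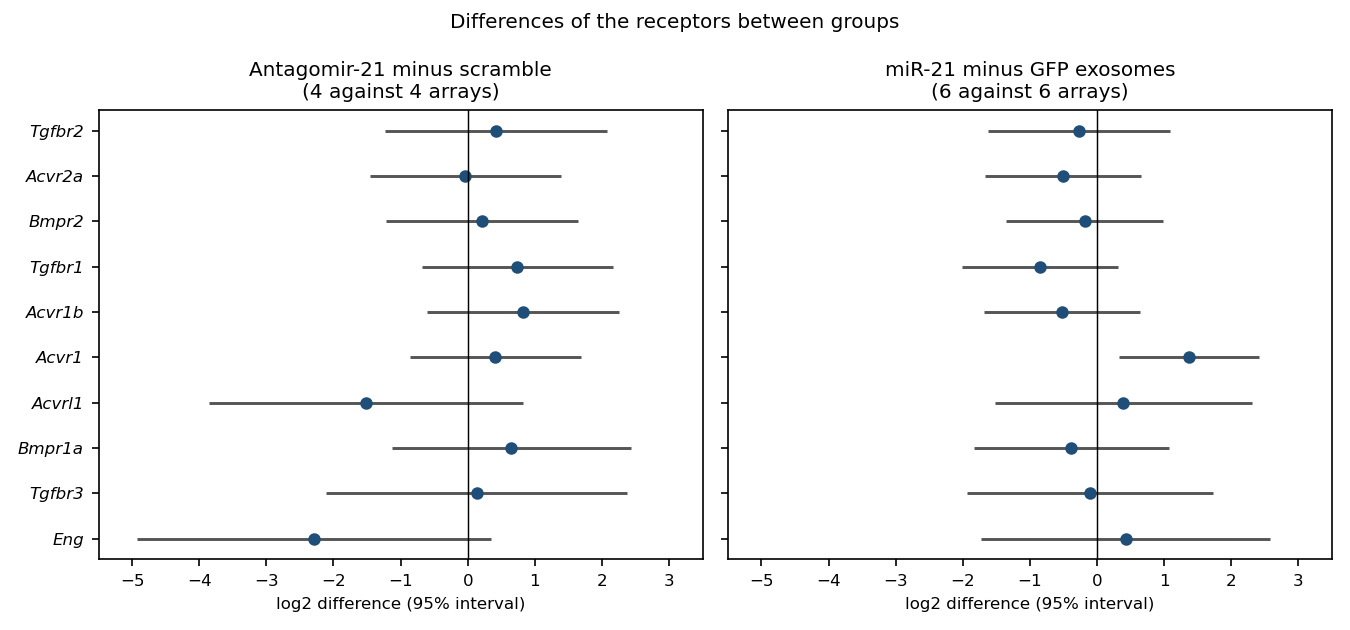
Log2 differences (x axis, points) with limma's 95% intervals (lines) for the 10 receptors (y axis), for antagomir-21 against scramble over both exosome kinds and for miR-21 against GFP exosomes over the 3 transfections. In these 2 contrasts every interval holds 0 except that of *Acvr1* for the exosomes (0.33 to 2.41), and for antagomir-21 against scramble the points run from −2.29 in *Eng* to 0.82 in *Acvr1b*.

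The 10 receptors did not share a direction. With GFP exosomes, antagomir-21 set against scramble gave 7 of 10 receptors a higher mean and 3 a lower one, with a median of 0.49 beside 0.03 over all genes. With miR-21 exosomes, 5 were higher and 5 lower, with a median of 0.12. At an unadjusted p under 0.05, 0 receptors passed with GFP exosomes (5.38% of all genes), 0 with miR-21 exosomes (5.3%) and 0 over both (5.16%). For miR-21 against GFP exosomes over the 3 transfections, 3 receptors were higher and 7 lower, with a median of −0.23 beside −0.02 over all genes. At that threshold 0 receptors passed after lipofectamine (3.84% of all genes) and 0 after antagomir-21 (5.68%). Scramble was below lipofectamine in 8 of 10 receptors, with a median of −0.35, and 0 passed (4.14%). Antagomir-21 was below lipofectamine in 6 of 10, with a median of −0.07. The comparisons of antagomir-21 and of lipofectamine with scramble share the scramble arrays.

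Antagomir-21 with GFP exosomes was the highest group in 5 receptors, *Tgfbr2*, *Acvr2a*, *Tgfbr1*, *Acvr1b* and *Bmpr1a*. Scramble with miR-21 exosomes was the lowest in 4 of these, all but *Acvr2a*, and it was the highest in *Acvr1* and *Eng*. Marker lists were averaged on these groups as well, without a test. The macrophage markers averaged 11.96 and 12.52 on the antagomir-21 arrays with GFP exosomes and 11.55 and 11.58 on the scramble arrays with miR-21 exosomes. On arrays of the other groups they averaged 11.08 to 12.32, which overlaps both. On the scramble arrays with miR-21 exosomes, B cell markers averaged 10.04 and 10.13, against 8.31 to 9.36 on the other 10 arrays. Mast cell markers averaged 8.46 and 8.67 there, against 6.46 to 8.57. Mesothelial and fibroblast markers averaged 7.91 and 8.78 there, against 6.92 to 8.63, and T and NK cell markers 5.47 and 6.28, against 5.75 to 9.01. The part of these in the order of the groups was not tested. When the 6 groups were ordered within each receptor, 0 pairs of neighbours in any order differed beyond the 95% half-width of their difference. The highest and lowest groups differed beyond it in *Acvr1* alone, by 2.24 against a half-width of 1.80, and these extremes were taken after ordering. In 6 receptors, *Tgfbr2*, *Acvr2a*, *Bmpr2*, *Bmpr1a*, *Tgfbr3* and *Eng*, the SD between the 2 arrays of a group was larger than the SD over all 12 arrays. For *Tgfbr2* these were 0.95 and 0.76, and for *Eng* 1.956 and 1.84. The share of all genes with a larger SD within groups was not counted, so these 6 do not set the receptors apart. *Acvr1* stood at the other end, with 0.34 within groups and 0.86 over all arrays.

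Signals of several receptors moved with a property of the whole array. *Tgfbr2* followed the SD of all log2 signals of its array, with Pearson's r = 0.866 and Spearman's rho = 0.846 over 12 arrays (permutation p adjusted over 10 receptors 0.0031 and 0.0109). *Acvr1b* did as well, with r = 0.833 and rho = 0.804 (adjusted permutation p 0.00435 and 0.0136). For *Tgfbr1* r was 0.722 and passed (adjusted permutation p = 0.0247), whereas rho was 0.559 and did not (adjusted permutation p = 0.158). Without the 2 arrays farthest from the median SD, r was 0.850 in *Tgfbr2*, 0.790 in *Acvr1b* and 0.546 in *Tgfbr1*. With the receptor signals quantile normalized, r was 0.773, 0.842 and 0.645. After group means were removed, r was 0.936, 0.717 and 0.829. With 2 arrays per group these values rest on 1 difference per group, and they were not tested. The other 7 receptors did not pass, with r from −0.585 in *Acvrl1* to 0.586 in *Acvr2a*, and *Acvr1* at −0.293. Quantile normalization turned *Acvr2a* to −0.331, and 3 of the 10 receptors were then above 0, against 5 before. Genes with strong signals did likewise. Among the 1820 strongest genes the median r was 0.66, with 92.1% above 0, beside a median of −0.04 over all genes. *Tgfbr2* is among these genes, whereas *Tgfbr1* and *Acvr1b* are not. The SD is computed from the same signals, and the permutation p is against independence alone. That p does not set a receptor apart from other strong genes, and the share of all genes that would pass was not counted. The part of this array property in the group means was not tested. The 2 antagomir-21 arrays with GFP exosomes had SDs of 2.47 and 2.48, and those of scramble with miR-21 exosomes 2.04 and 2.29.

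**Figure D3:**
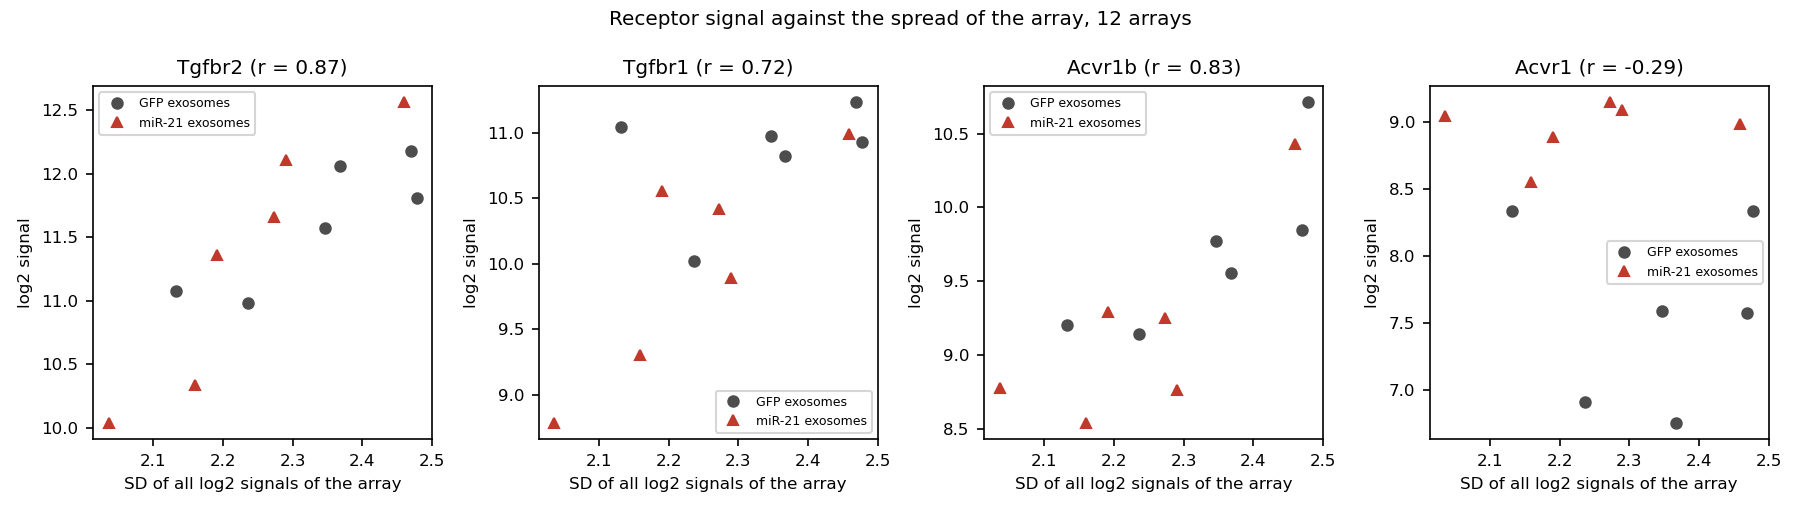
Log2 signal (y axis) of receptors against the SD of all log2 signals of the same array (x axis), 1 point per array, with circles for GFP and triangles for miR-21 exosomes. *Tgfbr2* and *Acvr1b* rise with the SD (r = 0.87 and 0.83), and *Acvr1* is separated by exosome kind with r = −0.29.

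Of 45 pairs of receptors, 0 correlated over the 12 arrays after adjustment (lowest adjusted permutation p = 0.113). An unadjusted permutation p under 0.05 was found in 9. The share of pairs below that threshold over all genes was not counted, so these 9 do not set the receptors apart. The highest r was that of *Tgfbr2* with *Tgfbr1*, the chains of the TGF-β receptor, at 0.759 (rho = 0.573; unadjusted permutation p 0.00468 and 0.0567). It fell to 0.263 without the 2 arrays farthest in *Tgfbr2*, so it rests on those arrays. After group means were removed it was 0.958, a value that rests on 1 difference per group. *Tgfbr1* and *Acvr1b* had r = 0.748 and rho = 0.769 (unadjusted permutation p of r 0.00567, adjusted 0.113), and 0.673 without 2 arrays. *Acvr2a* and *Bmpr2*, both type II receptors, had r = 0.731. When arrays were quantile normalized, these 3 pairs stayed at 0.762, 0.758 and 0.608, whereas *Tgfbr2* with *Acvr2a* went from 0.682 to −0.218.

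**Figure D4:**
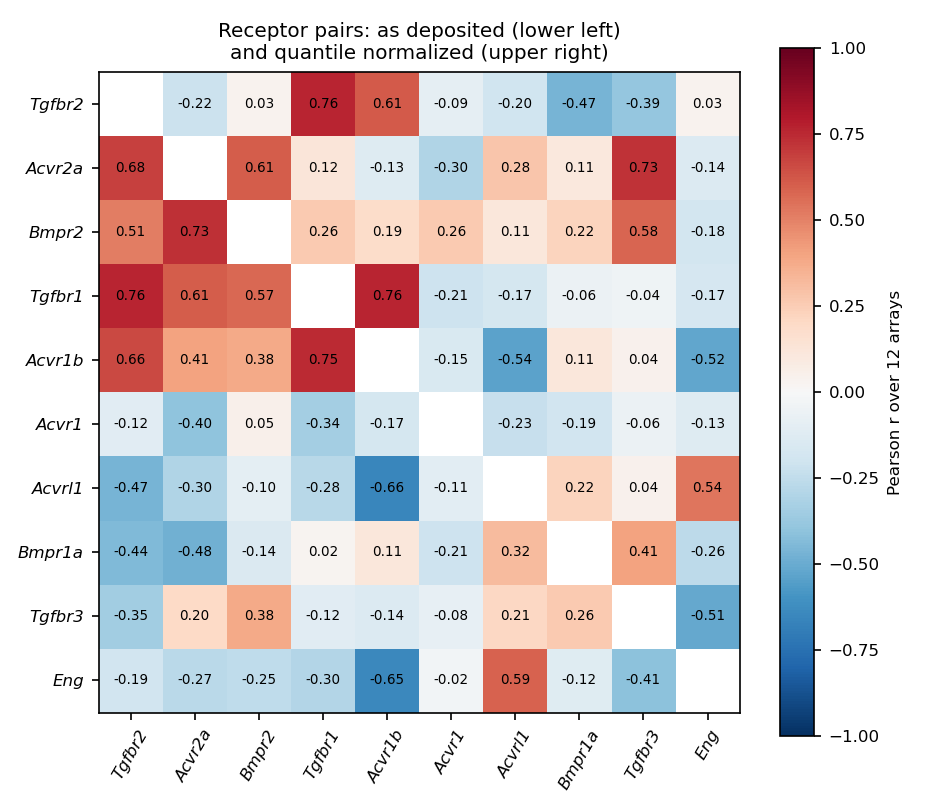
Pearson r over 12 arrays (color scale) for each pair of the 10 receptors (both axes), from the deposited values in the lower left and after quantile normalization in the upper right. Among *Tgfbr2*, *Tgfbr1* and *Acvr1b* r is 0.66 to 0.76 on the lower left and 0.61 to 0.76 on the upper right. For *Tgfbr2* with *Acvr2a* it is 0.68 against −0.22. On the lower left 0 of 45 pairs passed adjustment, and the upper right was not tested.

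The genes whose pattern was most like that of each receptor were taken from genes above the median signal, as a description. Nearest to *Tgfbr2* were *Tmem106a* (r = 0.971), *Clec4d* (r = 0.958), a C-type lectin of myeloid cells, and *Mcl1* (r = 0.957), which encodes a survival factor. Nearest to *Tgfbr1* were *Pomk* (r = 0.935), *Thbs1* (r = 0.928), which encodes an activator of latent TGF-β, and *Pgam1*. *Acvr1b* was nearest to *Ddx3x* (r = 0.929), *Serpinb6a* and *Trem2*, a lipid receptor of macrophages, and *Acvr1* to *Tnfsf4* (r = 0.877), *Sox5* and *Lgi3*. For *Acvr2a* they were *Pkig* (r = 0.966), *Paics* and *Irf2*, and for *Bmpr2* *Chordc1* (r = 0.887), *Nfx1* and *Dpy19l1*. *Bmpr1a* was nearest to *Ccdc141* (r = 0.931), *2700038G22Rik* and *Adamts9*, *Tgfbr3* to *Kcnd2* (r = 0.955), *Atad1* and *Myb*, *Eng* to *Plekhf1* (r = 0.945), *Sema6b* and *Cntn1*, and *Acvrl1* to *Gabra5* (r = 0.933), *Fbxw14* and *4933406F09Rik*. Each r is over 12 arrays that share the array property above, and was the highest of 9095 or 9096 genes.

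The probe sets of a receptor often went different ways. Over the 32 pairs of probe sets of the same gene, the median r over 12 arrays was 0.07, and 19 were above 0. A single pair passed adjustment over the 32, *Bmpr2* 1419616_at with 1441652_at (r = 0.820, rho = 0.671, adjusted permutation p of r 0.039), at 0.662 without 2 arrays. For antagomir-21 against scramble over both exosome kinds, all probe sets had the same sign in 4 of 10 receptors, *Acvr2a*, *Acvrl1*, *Bmpr2* and *Tgfbr3*. For miR-21 against GFP exosomes they did in 5, *Acvrl1*, *Bmpr2*, *Eng*, *Tgfbr1* and *Tgfbr3*. Neither the median r nor these counts were computed over other genes with several probe sets, so they do not set the receptors apart. The 2 other probe sets of *Tgfbr2* differed between antagomir-21 and scramble by −1.04 and 1.76, on either side of the 0.42 of the chosen one. The 2 other probe sets of *Acvr1* differed between exosome kinds by −0.02 (1416786_at) and 1.16 (1416787_at, limma unadjusted p = 0.241), beside 1.37 for the chosen one, 1448460_at. Their arrays overlapped between the exosome kinds, with 1416786_at at 5.78 to 8.41 with GFP and 4.75 to 9.03 with miR-21 exosomes.

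Among all 34945 probe sets fitted together, 0 receptor probe sets passed the adjusted test. With GFP exosomes, 1 of 28 differed between antagomir-21 and scramble at an unadjusted p under 0.05 (5.77% of all probe sets), *Acvrl1* 1435825_at, by −4.54 (limma unadjusted p = 0.00428). It was at 8.90 and 7.35 after scramble and at 3.27 and 3.90 after antagomir-21. With miR-21 exosomes, 2 of 28 did (5.69%), *Tgfbr2* 1422019_at by 3.29 (limma unadjusted p = 0.032) and *Eng* 1417271_a_at by 3.20 (limma unadjusted p = 0.0193). The latter went the opposite way to the chosen probe set of *Eng*, with 5.78 and 5.52 after scramble and 8.66 and 9.03 after antagomir-21. The interaction had an unadjusted p under 0.05 in 2 of 28 (5.56%), *Acvrl1* 1435825_at (5.59, limma unadjusted p = 0.0097) and *Eng* 1417271_a_at (5.30, limma unadjusted p = 0.0083). Between exosomes, 1 of 28 passed this threshold after lipofectamine (4.12%), *Bmpr1a* 1445413_at at 5.11 (limma unadjusted p = 0.00254), and 4 of 28 after antagomir-21 (6%), which were *Acvr1* 1416787_at, *Acvrl1* 1435825_at, *Eng* 1417271_a_at and *Bmpr1a* 1425492_at, all higher with miR-21 exosomes (3.86, 3.03, 2.92 and 2.74). With 1 array left out at a time, these counts of 28 ran from 0 to 5.

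**Figure D5:**
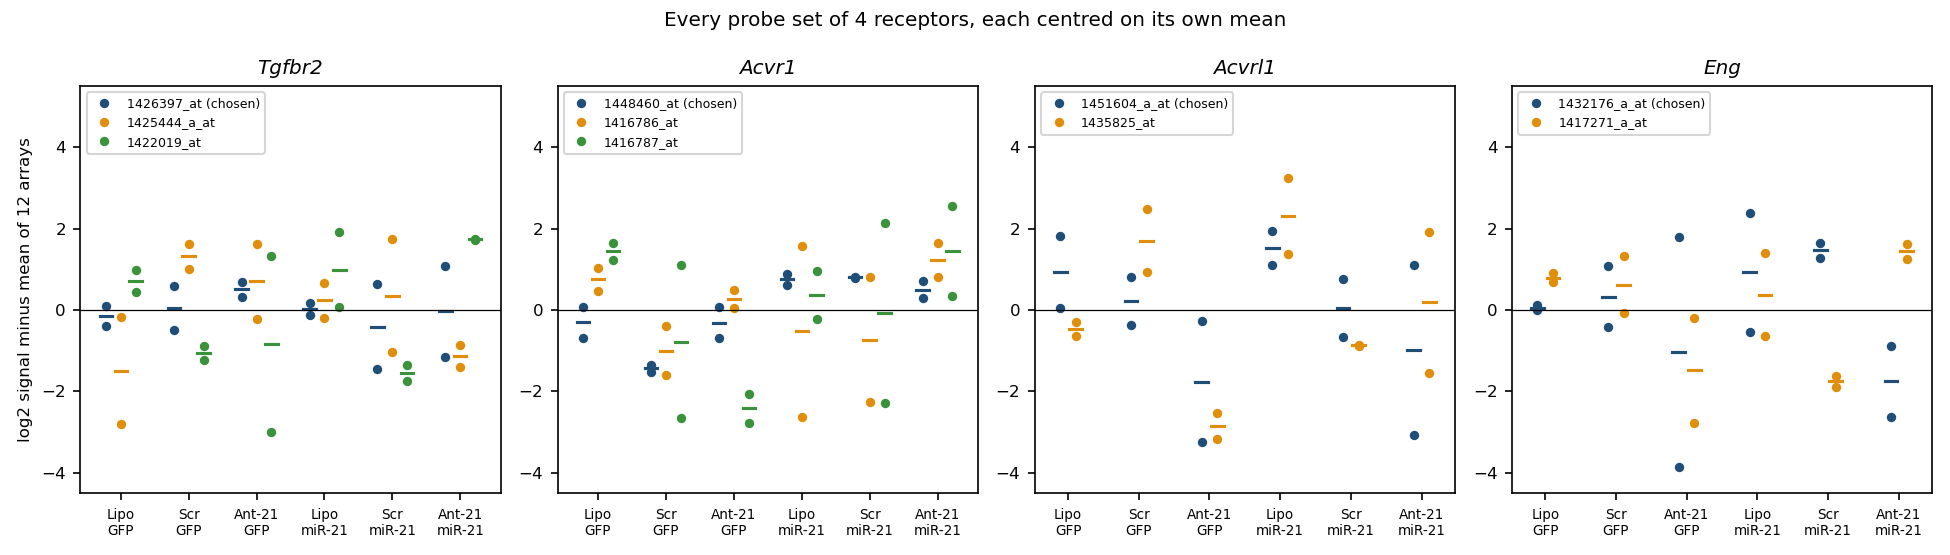
Log2 signal minus the probe set's own mean over 12 arrays (y axis) in the 6 groups (x axis) for every probe set of *Tgfbr2*, *Acvr1*, *Acvrl1* and *Eng*, with 1 color per probe set, 1 point per array and a bar for the mean of 2 arrays. The probe sets of *Eng* go opposite ways between scramble and antagomir-21 with miR-21 exosomes (−3.21 and 3.20), and the 3 probe sets of *Acvr1* do not share the difference between exosomes.

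Around the receptors, 74 of 78 listed genes of the pathway were measured. For antagomir-21 against scramble over both exosome kinds, 33 had a higher and 41 a lower mean, with a median of −0.07. At an unadjusted p under 0.05, 0 were higher and 4 lower, and 0 passed the adjusted test. These 4 were *Inhbb*, which encodes an activin subunit (−3.33, limma unadjusted p = 0.00713), *Gdf3*, a ligand (−2.10, limma unadjusted p = 0.0298), *Sost*, which encodes the secreted antagonist sclerostin (−2.32, limma unadjusted p = 0.0366), and *Acvr2b*, the second activin type II receptor (−2.31, limma unadjusted p = 0.0473). For miR-21 against GFP exosomes, 32 were higher and 42 lower, with a median of −0.13, and 5 higher and 1 lower had an unadjusted p under 0.05. The 4 with the lowest p were *Rgma*, a BMP co-receptor (2.83, limma unadjusted p = 0.00682), *Itgb8*, an integrin chain that activates latent TGF-β (2.66, limma unadjusted p = 0.00811), *Bambi*, a decoy receptor (−2.02, limma unadjusted p = 0.0188), and *Nbl1*, a BMP antagonist (1.64, limma unadjusted p = 0.0197). By role as listed, antagomir-21 was above scramble in 5 of 16 ligands (median −0.42), 3 of 9 ligand inhibitors (−0.62) and 0 of 4 other receptors (−0.97). It was above in 4 of 9 co-receptors (−0.08), 3 of 8 Smads (−0.18), 10 of 16 regulators of the receptors (0.19) and 8 of 12 response genes (0.49). The ligand list holds *Bmp1*, which encodes a protease, and the co-receptor list holds the decoy receptor *Bambi*. For miR-21 against GFP exosomes the same lists had 10 ligands (0.25), 6 ligand inhibitors (0.12), 2 other receptors (0.08), 4 co-receptors (−0.32), 4 Smads (−0.23), 2 regulators (−0.22) and 4 response genes (−0.26) above 0. These counts at an unadjusted p under 0.05 turned on single arrays, since the 4 became 1 without the first scramble array with GFP exosomes and 8 without the first with miR-21 exosomes, and the 6 between exosomes became 18 without the second lipofectamine array with miR-21 exosomes. The shares of these genes at that threshold stand beside the 5.16% and 5.45% of all genes given above.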

How the data were processed

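The log2 signals that the authors deposited, 1 per probe set and array, were used as they stood. The study's methods state RMA with quantile normalization, but array medians ran from 7.92 to 8.58 and every array had a trimmed linear mean of 496 to 499. The arrays had thus been scaled, not quantile normalized, by software that the sources do not name. A WT Pico kit and biological triplicates are given in the methods, NuGEN kits and 2 replicates per group in the labels. How far signals stood over background is unknown. Groups came from the labels, and each of 12 columns was matched to its sample.

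The table had 45037 probe sets. The platform annotation gave 34945 of them 1 symbol, 932 several and 9160 none, and 18193 genes were kept, each by its probe set of highest mean. Receptor coordinates are not given, because no build is named for the arrays. limma 3.58.1 in R 4.3.3 fitted 6 group means over all genes, or over all 34945 probe sets (6 residual and, for genes, 4.26 prior degrees of freedom), with Benjamini-Hochberg adjustment. Counts were also made at an unadjusted p under 0.05, since the methods use 0.05 and name no adjustment. Correlations used 100000 permutations, and all tests were 2-sided. The procedure was tested on simulated data with independent noise and changes larger than most receptor differences here. This did not measure its power at differences of the size found. The text names all 10 receptors, up to 4 pathway genes with the smallest p in each averaged comparison, and the 3 genes most like each receptor. The members and lists were chosen with earlier results of these data known. Alternatives were quantile normalization, median centring, the mean of all probe sets, a filter on low signal, an intensity trend and array weights. Further ones were the replicate block, an unpaired t-test, a fit of the 4 arrays compared, and leaving out each array. The paper gives that t-test for 2 groups in its general statistics, and its microarray methods name none. The relation to the SD of the array was added after the data were seen.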

Additional observations from a re-analysis of the deposited data

How the results depend on the processing

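The adjusted test called 0 of the receptors under every alternative that was run, so the values here concern directions, medians and unadjusted counts (at p under 0.05) alone, and the cause of each shift was not tested. With the mean of all probe sets of a gene, antagomir-21 against scramble turned to −0.7806 in *Tgfbr1* with GFP exosomes, and over both exosome kinds to −0.0425 in *Tgfbr1*, −0.0395 in *Acvr1b* and −0.14 in *Bmpr1a*. The exosome difference turned to −0.436 in *Acvr1* after lipofectamine, and over the 3 transfections to 0.0535 in *Tgfbr2* and 0.00405 in *Acvr2a*. Quantile normalization turned *Bmpr2* to −0.0171 and median centring *Acvr2a* to 0.0834, both for antagomir-21 over both kinds. Median centring moved the median of all genes by over 0.1 in several comparisons, to −0.26 between exosomes over the 3 transfections and to 0.11 for antagomir-21 against scramble.

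The median difference of the receptors moved to −0.3364 between exosomes after lipofectamine with median centring. With the mean of all probe sets it was −0.4441 between antagomir-21 and scramble with GFP exosomes, −0.0410 over both kinds, 0.5445 between exosomes after antagomir-21 and 0.7909 for the interaction. Among genes at or above the median signal it was 0.542 for antagomir-21 with miR-21 exosomes.

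The unadjusted count with the mean of all probe sets was 1 between antagomir-21 and scramble with GFP exosomes, 1 over both kinds, 1 for the interaction and 1 across the 6 groups, and between exosomes 0 after scramble, 2 after antagomir-21 and 0 over the 3 transfections. Among genes at or above the median signal it was 1 across the 6 groups and 0 for antagomir-21 against lipofectamine, where *Acvrl1* fell under the filter. With an intensity trend it was 0 between exosomes after scramble and over the 3 transfections, and 0 for antagomir-21 against lipofectamine. It was also 0 for antagomir-21 with miR-21 exosomes set against scramble with GFP exosomes. That last count was also 0 with median centring, array weights, the replicate block and a fit of the 4 arrays compared. The 4-array fit gave 1 for antagomir-21 with miR-21 exosomes, *Eng*, and 0 between exosomes after scramble. The unpaired t-test gave 1 between exosomes after lipofectamine, *Tgfbr1* (after Benjamini-Hochberg adjustment 0).

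After group means were removed, the 15 correlations between arrays of the same replicate number ran from −0.192 to 0.167. Whether such arrays shared an animal or culture is not stated in the labels. These correlations cannot decide it, because each rests on differences between the few arrays of a group, which also hold the noise of single arrays. With the replicate block *Acvr1* differed by 1.37 between exosomes over the 3 transfections, as without it, and the block changed no unadjusted count of the 10 receptors but the one named above.

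Without single arrays, the median difference between antagomir-21 and scramble ran from 0.0964 to 0.8451 with GFP and from −0.3554 to 0.1761 with miR-21 exosomes. Between exosomes it ran from −0.7039 to 0.2352 after scramble and from −0.7161 to −0.1359 after antagomir-21. For antagomir-21 with miR-21 exosomes set against scramble with GFP exosomes it ran from −0.5701 to 0.4333, and for the interaction from −0.8339 to 0.2779. The unadjusted count ran from 0 to 2 between exosomes after scramble and for antagomir-21 against lipofectamine, and from 0 to 1 in the other comparisons and across the 6 groups. For antagomir-21 against scramble, *Tgfbr2* ran from −0.0669 to 1.006 with GFP exosomes, from −0.7381 to 1.488 with miR-21 exosomes and from −0.1342 to 0.979 over both, and *Tgfbr1* from −0.0329 to 1.661 with miR-21 exosomes. *Eng* ran from −4.186 to 1.461 with GFP exosomes. Over both kinds *Acvr2a* ran from −0.4705 to 0.4036, *Bmpr2* from −0.0249 to 0.4495, *Bmpr1a* from −0.2322 to 1.525 and *Tgfbr3* from −0.3044 to 0.5761. Between exosomes over the 3 transfections, *Tgfbr2* ran from −0.6395 to 0.1026, *Bmpr2* from −0.4573 to 0.092, *Acvrl1* from −0.3038 to 1.088, *Bmpr1a* from −0.9693 to 0.2019, *Tgfbr3* from −0.8961 to 0.6922 and *Eng* from −0.5128 to 1.369, and *Tgfbr3* after lipofectamine from −4.467 to 0.2979. *Acvr1* kept its direction, from 1.24 to 1.495, as did *Tgfbr1* (−1.13 to −0.57), *Acvr1b* (−0.84 to −0.21) and *Acvr2a* (−0.80 to −0.22). Over all alternatives the pathway count ran from 1 to 8 for antagomir-21 and from 2 to 18 for exosomes, and the counts over the 28 probe sets from 0 to 5. A group with 1 array left was assumed to vary like the others. The 2 arrays per group and the unknown background limit every statement on dim probe sets.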
